A study of Mus musculus with 6 samples.

Results

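The cytochrome P450 genes of the mouse lung were described in wild-type mice and in mice with a transgene for Scnn1b (Scnn1b-Tg). The members are all genes whose platform symbol starts with Cyp and a digit and that have a probe set with exactly 1 symbol, and they number 87 of the 19935 genes measured. Each member has 1 such probe set, and among the members Cyp2d37-ps and Cyp4f41-ps carry symbols of pseudogenes. RNA came from whole lung of the C57BL/6 background, hybridised to 3 arrays for either genotype, and the labels give no age, sex or treatment. The stated purpose of the series was a search for emphysema candidate genes. As background, Scnn1b codes for a subunit (β) of the sodium channel ENaC of airway epithelium, and the mouse line known by the name Scnn1b-Tg carries it behind a promoter of airway club cells, which the labels do not state.

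Cytochromes P450 are haem enzymes that insert an oxygen atom into their substrate. Those of families 1, 2 and 3 mainly oxidise foreign compounds, while others make or break down fatty acid mediators, sterols, steroid hormones and vitamins A and D. Most are known from the liver, and in mouse lung the club cells of the airways are the classic site of P450 activity, with Cyp2f2 as their characteristic enzyme. Electrons reach the enzymes of the endoplasmic reticulum from cytochrome P450 reductase and cytochrome b5, and those of mitochondria from ferredoxin.

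Upstream sequences are printed for 3 members on which the results turn: Cyp2f2 and Cyp4b1, with the highest intensities of the family, and Cyp4f18, with its largest positive log2 fold change. Each run holds the 250 bases before the transcription start, 5′ to 3′, from RefSeq (GRCm38.p6). Capitals mark matches to CAAGNG, a core recognised by the lung factor NKX2-1.
Cyp2f2, chr7:27119705-27119954, plus strand: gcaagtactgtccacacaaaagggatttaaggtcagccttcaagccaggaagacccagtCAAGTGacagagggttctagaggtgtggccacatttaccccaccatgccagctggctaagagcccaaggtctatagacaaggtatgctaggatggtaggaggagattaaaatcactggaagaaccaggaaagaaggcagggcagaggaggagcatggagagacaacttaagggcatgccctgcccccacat
Cyp4b1, chr4:115647722-115647971, minus strand: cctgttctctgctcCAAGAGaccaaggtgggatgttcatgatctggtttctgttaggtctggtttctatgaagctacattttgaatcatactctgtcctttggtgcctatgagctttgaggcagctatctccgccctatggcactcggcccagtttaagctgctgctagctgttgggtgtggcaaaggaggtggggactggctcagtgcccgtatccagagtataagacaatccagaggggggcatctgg
Cyp4f18, chr8:72009627-72009876, minus strand: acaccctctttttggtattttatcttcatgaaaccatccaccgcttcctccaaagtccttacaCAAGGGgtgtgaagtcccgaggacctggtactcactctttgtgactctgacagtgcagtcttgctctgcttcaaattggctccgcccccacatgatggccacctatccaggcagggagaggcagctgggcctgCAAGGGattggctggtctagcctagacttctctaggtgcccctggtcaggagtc
The motif begins 191 bases before the start of Cyp2f2, 236 before that of Cyp4b1, and 187 and 54 before that of Cyp4f18.

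Of the 87 members 64 had a RefSeq promoter entry, 13 of them among the 15 members with a mean intensity of 50 or more. CAAGNG, searched on both strands like the motifs that follow, occurred in 40.5% of all 27025 promoters, in 28 of the 64 members and in 8 of the 13. The C/EBP letters TTGCNNAA occurred in 9.55% of all promoters and in 11 of the 64 members. The forkhead letters TGTTTNC occurred in 17.9% and in 10 members, and GCGTG, the core bound by the aryl hydrocarbon receptor, in 28.2% and in 15 members. TATAAA was in 13% of all promoters, in 23 of the 64 members, or 35.9%, and in 1 of the 13 with the higher intensities. The letters of these 5 motifs can overlap on the sequence, and a match is a description of letters and not a binding site.

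Among the arrays as a whole, the median intensity ranged from 47.6 to 48.5 and the minimum from 18.3 to 18.6. A pair of arrays stood apart on the principal components of all genes: wild type replicate 2 on the first (16.3, the others from -8.91 to 5.46; 34.0% of the variance) and Scnn1b-Tg replicate 3 on the second (13.3, the others from -8.03 to 2.47; 22.6%). Where leaving out one of them moved the log2 fold change of a named gene by over 1.5 times, its value without that array stands beside the result. Scnn1b itself checked the labels, with intensities of 172, 108 and 139 in the wild-type arrays and 1405, 1527 and 1333 in the transgenic arrays, and its log2 fold change was 3.37 ± 0.16 (SE; limma adjusted p = 0.00241, and 0.0559 without wild type replicate 3). Whether each sample is a separate animal is not stated in the labels, and the p-values then cover only the variation among these 6 samples, which may be technical. RNA of whole lung also cannot tell fewer cells of a type from less RNA per cell.

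Most P450 genes gave little signal in lung. An RMA intensity is the summarised brightness of a probe set, and since probes differ in affinity the order of members by intensity is not an order of transcript number. A mean over the 6 arrays of under 50 was found for 72 members, or 82.8%, against 46.5% of all genes, and 41 members lay under 25, close to the lowest values on the arrays. The median over members was 25.6, beside 55.2 over all genes. As a yardstick, 5 hepatocyte markers (Alb, Apoa1, Tat, Hpd and F2), which lung is not known to express strongly, had means between 28.96 and 39.04. Only 3 members reached 200, namely Cyp2f2, Cyp4b1 and Cyp2b10, and 12 lay between 50 and 200. The members on either side of the limits were Cyp2b10 (217) and Cyp39a1 (183) at the upper, and Cyp51 (50.4) and Cyp26b1 (49.5) at the lower.

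**Figure D1:**
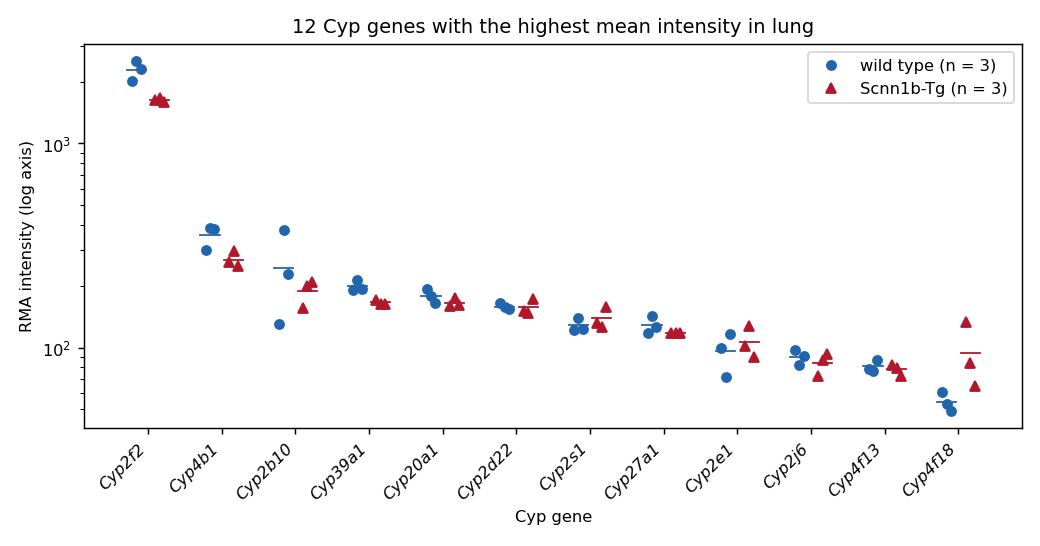
RMA intensity (log axis) of the 12 Cyp genes with the highest mean over the 6 arrays, with circles for the 3 wild-type and triangles for the 3 Scnn1b-Tg arrays and a short line at each mean. Cyp2f2 stands at 1594 or more on all 6 arrays, Cyp2b10 spreads from 130.2 to 378 within wild type, and Cyp4f18 from 65.0 to 134 within Scnn1b-Tg.

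Between the genotypes 0 of the 87 members passed the threshold of an adjusted p under 0.05 in limma, where 1 of 19935 genes did (0.00502%). At an unadjusted p under 0.05, 4 members were lower in Scnn1b-Tg (Cyp2f2, Cyp39a1, Cyp4b1 and Cyp2b19) and 1 was higher (Cyp4f18), beside 2.05% of all genes lower and 3.96% higher. The arrays of the genotypes did not overlap for 7 members that were lower and 5 that were higher, beside 4.41% and 6.26% of all genes. As shares of the family these are 8.05% lower and 5.75% higher. The median log2 fold change over the 87 members was -0.0066, against 0.0052 over all genes. A value below 0 was found for 50 of the 87, beside 46.8% of all genes.

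Intensity was then taken into account. Among the 15 members with a mean of 50 or more, 12 had a log2 fold change below 0, with a median of -0.076, while 44.2% of all genes of that intensity were below 0 and their median was 0.014. That share of all genes was 53.1% after quantile normalization and 54.9% after median centring, with 12 members below 0 under both. Over single arrays left out between 10 and 12 of the 15 members were below 0. In this range 3 members were lower and 1 was higher at an unadjusted p under 0.05, beside 2.81% and 5.34% of genes. The same 3 did not overlap downward, where 4.53% of genes did so, and the same 1 upward, where 6.96% did. The 3 members above 200 had a median of -0.39, and the 72 members under 50 a median of -0.0039 with values from -0.12 to 0.14.

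**Figure D2:**
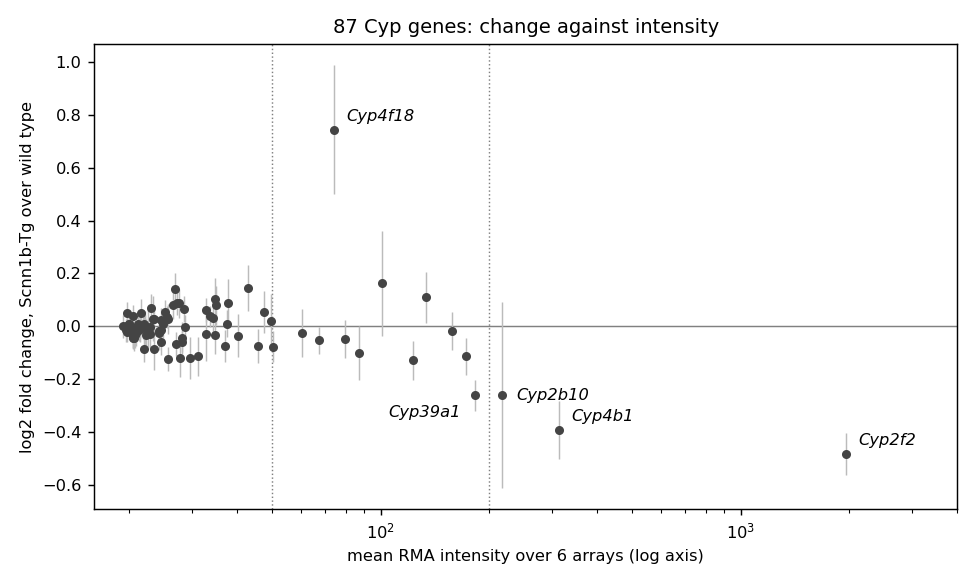
Log2 fold change of Scnn1b-Tg over wild type (bars, SE of the limma fit) against the mean RMA intensity over 6 arrays (log axis) for the 87 Cyp genes, with dotted lines at 50 and 200. The 72 genes under 50 lie between -0.12 and 0.14, Cyp2f2, Cyp4b1, Cyp2b10 and Cyp39a1 lie below 0, and Cyp4f18 lies at 0.74.

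Among the enzymes of foreign compounds, Cyp2f2, which activates naphthalene and styrene in club cells, had the smallest p-value of the family. Its intensities were 2029, 2523 and 2309 in wild type and 1629, 1668 and 1594 in Scnn1b-Tg. All 3 transgenic arrays lay below all wild-type arrays, and they lay closer together than these, with a highest over lowest value of 1.05 against 1.24. The log2 fold change was -0.48 ± 0.08 (SE), or 0.716 times the wild-type level, with an unadjusted p of 0.000536 and a limma adjusted p of 0.205. Without wild type replicate 2 it was -0.41, without Scnn1b-Tg replicate 3 -0.47, and without both -0.39. Over the 15 alternatives it ran from -0.57 to -0.39 with adjusted p-values from 0.0565 to 0.629, so it was called in none.

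Markers of club cells gave values of the same sign. Of 13 such markers that are not P450 genes, 12 had a log2 fold change below 0, beside 46.8% of all genes, with a median of -0.17. At an unadjusted p under 0.05, 5 were lower, beside 2.05% of all genes. The median deviation of the 13 markers was highest on wild type replicate 2. Without that array 11 were below 0, the median was -0.12 and 3 were lower at that p. Their summed intensity was 12489 to 15765 in wild type and 11816 to 12214 in Scnn1b-Tg. The lowest mean of the 13 was 34.7, that of Upk3a, which is among the 5 lower markers. That mean lies within the range of the hepatocyte markers given above. Scgb1a1, the defining secretoglobin of these cells, was 3948, 4579 and 4509 in wild type and 3379, 3660 and 3452 in Scnn1b-Tg, for which the fit gave -0.31 ± 0.07 (SE), and -0.27 without wild type replicate 2. Gsta3, a glutathione transferase in the same list, had a log2 fold change further below 0 than that of Cyp2f2, at -0.65 ± 0.20 (SE), and -0.41 without wild type replicate 2. Their part in the value of Cyp2f2 was not tested, but the difference within each array was measured. Log2 Cyp2f2 minus log2 Scgb1a1 was -0.96, -0.86 and -0.97 in wild type and -1.05, -1.13 and -1.11 in Scnn1b-Tg. The groups did not overlap and differed by -0.17, with an exact permutation p of 0.1 (two-sided), the smallest that 3 arrays against 3 allow. Against the median deviation of the 13 markers, Cyp2f2 deviated by 0.15 ± 0.03 (SD, n = 3) on wild-type arrays and by -0.16 ± 0.09 on transgenic ones. These groups did not overlap either, and the exact permutation p was again 0.1. Both differences were chosen after the values were seen, for the member with the smallest p-value of the family. Their separation on the same arrays is therefore a description and not independent support. Among lists of other lung cell types, 5 of 6 endothelial and 3 of 6 ciliated markers were below 0. So were 2 of 6 alveolar type 2, 2 of 4 alveolar type 1 and 2 of 4 smooth muscle markers. In these lists 0 markers were lower at an unadjusted p under 0.05 when all arrays were used. Without wild type replicate 2, 1 endothelial and 1 smooth muscle marker were lower at that p. Without Scnn1b-Tg replicate 3, 1 endothelial and 1 ciliated marker were lower, beside 6 of 13 club cell markers. In that fit 6 of 6 endothelial and 5 of 6 ciliated markers were below 0. Without both arrays 2 endothelial and 6 club cell markers were lower, and 1 club cell marker was higher.

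Cyp2b10, the phenobarbital-inducible P450 under control of the receptor CAR, was the most variable member above 50. Its intensities were 130.2, 378 and 229 in wild type, a range of 2.90-fold within the genotype, and 157, 201 and 209 in Scnn1b-Tg. The transgenic arrays lay wholly inside the wild-type range. The log2 fold change was -0.26 ± 0.35 (SE), with a limma adjusted p of 0.981. It turned to 0.12 without wild type replicate 2 and was -0.65 without wild type replicate 1, so the direction rested on single wild-type arrays.

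The 5 members of the Cyp2b subfamily all had log2 fold changes below 0, with a median of -0.12. Besides Cyp2b10 they were dim. Cyp2b19, known from keratinocytes, measured 26.9, 26.1 and 27.1 in wild type and 24.9, 23.7 and 24.96 in Scnn1b-Tg (-0.12 ± 0.04, SE), and its groups did not overlap. Cyp2b9 averaged 28.9 ± 2.56 (SD, n = 3) and 26.5 ± 0.857 (-0.12 ± 0.07), and its log2 fold change was -0.07 without wild type replicate 2. The subfamily is made of closely related genes whose probe sets may share signal, which was not tested.

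In the Cyp2d subfamily, which includes the pseudogene Cyp2d37-ps, 7 of 10 members were above 0, with a median of 0.03. The share above 0 was 53.2% over all genes, and 9 members of the subfamily had means under 50. Cyp2d22, its member with the highest intensity and regarded as the mouse counterpart of human CYP2D6, measured 165, 157 and 154 in wild type and 151, 147 and 173 in Scnn1b-Tg, with overlapping groups (-0.02 ± 0.07). Its sign changed in fits that lacked wild type replicate 1 (0.010), Scnn1b-Tg replicate 1 (0.011) or Scnn1b-Tg replicate 2 (0.028), and it was -0.09 without Scnn1b-Tg replicate 3. Cyp2d10 measured 26.4, 26.2 and 23.8 in wild type against 26.8, 28.2 and 29.3, giving a log2 fold change of 0.14 ± 0.06 (SE) with an unadjusted p of 0.0509. Its groups did not overlap, by a margin of under 1 intensity unit. Signal at this level is close to the floor of the arrays, and these genes too are near copies of each other.

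Other P450 genes of this class with signal overlapped between genotypes. Cyp2s1, an enzyme of airway and gut epithelium, was 122, 139.5 and 123 in wild type and 133, 126 and 158 in Scnn1b-Tg (0.11 ± 0.10, SE). Its value was 0.014 without Scnn1b-Tg replicate 3, its highest array, and 0.17 without wild type replicate 2. Cyp2e1, which oxidises ethanol, was 99.5, 71.6 and 117 against 102, 128 and 89.99 (0.16 ± 0.20). Its lowest value was on wild type replicate 2, and without that array the log2 fold change was -0.03. Without Scnn1b-Tg replicate 3 it was 0.28. Targets of the aryl hydrocarbon receptor, named after their values were seen, stayed dim: Cyp1a1 had means of 24.7 and 25.7 and Cyp1b1 of 36.7 and 38.8 in wild type and Scnn1b-Tg. The Cyp3a subfamily, the main drug-metabolising P450 of liver, had 6 members between 19.7 and 29.5, with Cyp3a13 as the highest (30.8 ± 2.94 in wild type and 28.2 ± 1.47 in Scnn1b-Tg, SD, n = 3). The log2 fold change of Cyp3a13 was -0.12, and -0.08 without Scnn1b-Tg replicate 3.

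**Figure D3:**
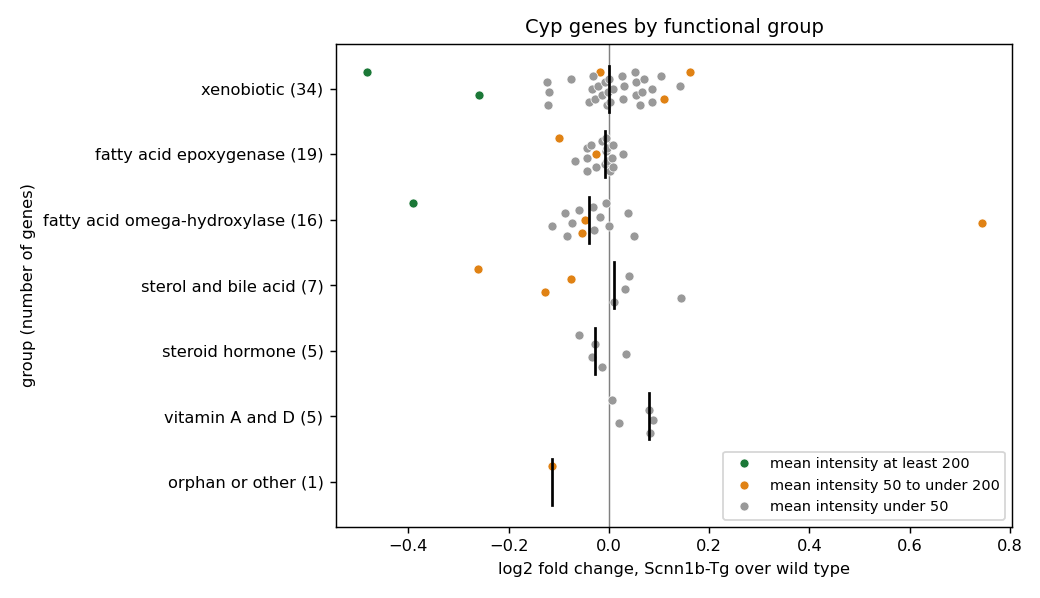
Log2 fold change of Scnn1b-Tg over wild type for the 87 Cyp genes by functional group (number of genes in brackets), coloured by mean intensity, with a black line at the median of each group. Medians lie between -0.11 (the orphan Cyp20a1 alone) and 0.08, and the genes farthest from 0 are Cyp2f2, Cyp4b1 and Cyp4f18.

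Enzymes of fatty acids gave both the second lowest and the highest value of the family. Cyp4b1, a lung-rich hydroxylase that also activates the lung toxin ipomeanol, measured 301, 385 and 380.1 in wild type and 262, 297 and 252 in Scnn1b-Tg. The groups did not overlap, although wild type replicate 1 and Scnn1b-Tg replicate 2 came within 5 intensity units. The log2 fold change was -0.39 ± 0.11 (SE), or 0.762 times wild type, with a limma adjusted p of 0.582. Without wild type replicate 2 it was -0.33, and without that array and Scnn1b-Tg replicate 3 it was -0.28. Relative to the median deviation of the club cell markers, Cyp4b1 deviated by 0.10 ± 0.10 (SD, n = 3) on wild-type arrays and by -0.12 ± 0.15 on transgenic ones, and here the groups overlapped (exact permutation p = 0.2, two-sided).

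Cyp4f18, which inactivates leukotriene B4 in leukocytes, had the largest positive value. It measured 60.7, 52.7 and 48.9 in wild type and 134, 84.3 and 65.0 in Scnn1b-Tg. The transgenic arrays were all higher, but spread 2.06-fold among themselves, and the lowest of them lay near the highest wild-type array. The log2 fold change was 0.74 ± 0.24 (SE), or 1.67-fold, with an unadjusted p of 0.0186 and a limma adjusted p of 0.732. Without Scnn1b-Tg replicate 1 it was 0.46, and without Scnn1b-Tg replicate 3 it was 0.98. With 16 subtracted from every intensity it was 0.96.

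Leukocyte markers stand beside this value. All 7 macrophage markers had a log2 fold change above 0, beside 53.2% of all genes, with a median of 0.37. They ran from 0.01 ± 0.12 (SE) for Marco, which is near 0, to 0.91 ± 0.15 for Itgam. At an unadjusted p under 0.05, 6 were higher, beside 3.96% of all genes. Without wild type replicate 2 the macrophage markers had 6 above 0 and 5 higher at that p, with a median of 0.37. Without Scnn1b-Tg replicate 3 these markers gave the same counts and a median of 0.32. Their summed intensity was 732 to 742 in wild type and 929 to 1015 in Scnn1b-Tg, with no marker near the floor (lowest mean 52.0). Of 6 neutrophil markers, a list added after the data were seen, 4 were above 0 with a median of 0.03. Their summed intensity of 306 to 442 and 506 to 781 was carried by Retnlg (143 ± 47.5 in wild type and 379 ± 164 in Scnn1b-Tg, SD, n = 3), while S100a8 and S100a9 gave -0.08 and 0.04. Another neutrophil marker, Mmp8, was lower without overlap (-0.12 ± 0.05, SE). Its mean of 29.3 and that of the neutrophil marker Cxcr2 (35.5) lie within the range of the hepatocyte markers given above. Without wild type replicate 2, 2 of the 6 were above 0 and their median was -0.10. Across the transgenic arrays Cyp4f18, Retnlg and Adgre1, alone among the 7 macrophage markers, were highest on replicate 1 and lowest on replicate 3. The macrophage markers Cd68, Csf1r, Mrc1 and Marco were highest on replicate 3, Itgax on replicate 2 and Itgam on replicate 1. S100a8, S100a9 and Cxcr2 were lowest on replicate 1 and highest on replicate 3. The neutrophil markers Mmp8 and Csf3r were highest on replicate 1 and lowest on replicate 2. Against the median deviation of the macrophage markers, Cyp4f18 deviated by -0.18 ± 0.21 (SD, n = 3) on wild-type arrays and by 0.19 ± 0.56 on transgenic ones, with overlapping groups (exact permutation p = 0.4, two-sided). The part of the neutrophils was not tested.

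**Figure D4:**
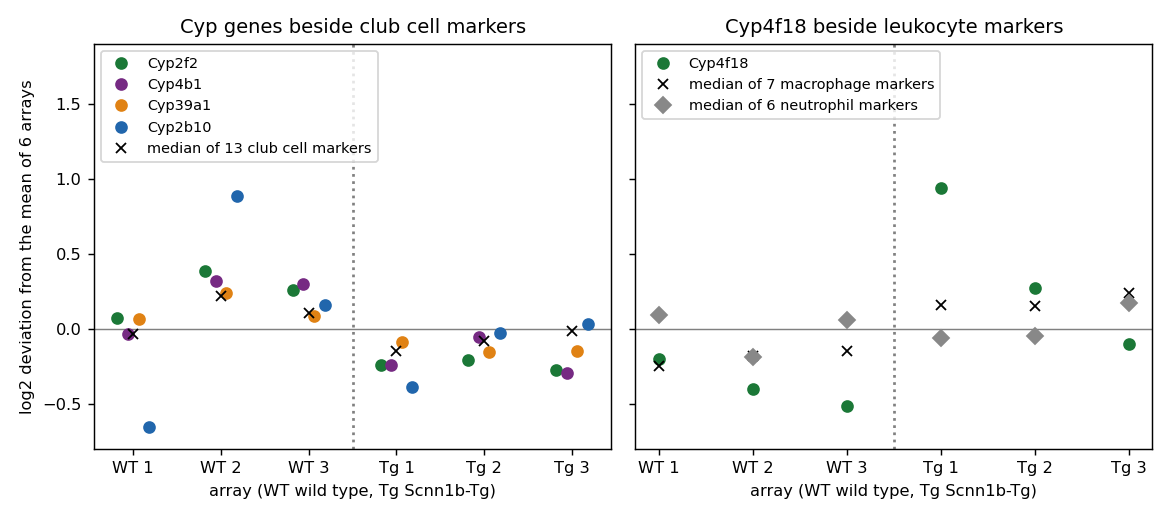
Log2 deviation from the mean of the 6 arrays, by array. On the left are Cyp2f2, Cyp4b1, Cyp39a1 and Cyp2b10 with the median of 13 club cell markers, which is highest on wild type replicate 2 (0.22). On the right is Cyp4f18, at 0.94 on Scnn1b-Tg replicate 1 and -0.10 on replicate 3, with the medians of 7 macrophage and 6 neutrophil markers.

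Over the whole Cyp4 family of 16 members, Cyp4b1 and Cyp4f18 included, 12 were below 0 and the median was -0.04. The other Cyp4f member named for its intensity, Cyp4f13, measured 78.5, 76.5 and 87.3 in wild type and 82.1, 79.5 and 72.6 in Scnn1b-Tg, with overlapping groups (-0.05 ± 0.07, SE). Its value was -0.09 without wild type replicate 2 and 0.0029 without Scnn1b-Tg replicate 3. The 5 Cyp4a genes, classic targets of PPARα in liver, lay between 19.8 and 23.5. Cyp4a12a gave -0.08 ± 0.05 and Cyp4a12b -0.09 ± 0.08 at this floor, the latter -0.01 without wild type replicate 2.

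The epoxygenases of the Cyp2c and Cyp2j subfamilies, which turn arachidonic acid into epoxides, had 14 of 19 members below 0 but a median of only -0.0081 and a range from -0.10 to 0.03. Only Cyp2j6 and Cyp2j9 had means above 50. Cyp2j6 measured 97.2, 82.1 and 91.1 in wild type and 72.8, 87.3 and 92.7 in Scnn1b-Tg, so that the highest transgenic array lay inside the wild-type range (-0.10 ± 0.10, SE). Without Scnn1b-Tg replicate 1 its value was 0.0011, and it was -0.17 without either of the arrays that stood apart. Of 13 Cyp2c genes none reached 50, and the highest, Cyp2c37, averaged 40.7 ± 0.919 (SD, n = 3) on the wild-type and 39.8 ± 4.52 on the transgenic arrays. Its log2 fold change was -0.04, with -0.05 without wild type replicate 2 and -0.0036 without Scnn1b-Tg replicate 3.

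Among enzymes of sterols, Cyp39a1, which hydroxylates an oxysterol on the way to bile acids, had the second smallest p-value of all members. It measured 191, 215 and 193 in wild type and 171, 164 and 164 in Scnn1b-Tg, with no overlap. The log2 fold change was -0.26 ± 0.06 (SE), or 0.835 times wild type, with an unadjusted p of 0.00304 and a limma adjusted p of 0.403. It ran from -0.29 to -0.20 over the alternatives and was called in none. Cyp27a1, the mitochondrial sterol hydroxylase, measured 117.5, 143 and 126 in wild type, while the transgenic arrays were nearly equal at 118, 117 and 118 (-0.13 ± 0.07). Its highest value was on wild type replicate 2, without which the log2 fold change was -0.05, and its groups overlapped at wild type replicate 1. The group as a whole had 3 of 7 members below 0 and a median of 0.01.

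Genes of steroid hormone synthesis (Cyp11a1, Cyp11b1, Cyp11b2, Cyp17a1 and Cyp21a1) lay between 24.2 and 34.7, with 4 of 5 below 0 and a median of -0.03. The 5 genes of vitamins A and D were all above 0, with values from 0.0070 to 0.09 and means between 24.8 and 49.5. Their leading member by p-value was Cyp27b1, which makes active vitamin D, with 26.4 ± 1.06 (SD, n = 3) on the wild-type and 28.0 ± 0.495 on the transgenic arrays (0.09 ± 0.05, SE). Its wild-type and transgenic arrays overlapped, and the highest wild-type array reached 27.6. Cyp20a1, an orphan P450 without an established substrate, was 194, 178 and 166 in wild type and 160.4, 176 and 161 in Scnn1b-Tg (-0.11 ± 0.07, SE), again with overlap.

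Many P450 genes lie in tandem clusters, and these were taken from the order of RefSeq genes, with at most 10 other coding genes between members. There were 8 clusters of 3 or more measured genes, holding 62 of the 87 members. The cluster on chromosome 7 that contains Cyp2f2 also holds Cyp2s1, Cyp2b10 and 8 further measured members. Of its 11 genes 7 were below 0 (46.8% of all genes were), with a median of -0.03, and 2 did not overlap downward (Cyp2f2 and Cyp2b19), as did 4.41% of all genes. In the cluster on chromosome 4 with Cyp4b1, 6 of 7 members were below 0, and 6 of the 7 had means under 25. The Cyp2c cluster on chromosome 19 had 9 of 12 members under 25, and the Cyp3a cluster on chromosome 5 all 5.

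Genes that serve the P450 enzymes were read from 4 lists, and 0 of their members passed the limma threshold. Of 7 measured redox partners 5 were below 0, with a median of -0.0063. Cyb5a, cytochrome b5, measured 446, 458 and 516 in wild type and 469, 447 and 371 in Scnn1b-Tg (-0.14 ± 0.10, SE), with overlap, and gave -0.04 without Scnn1b-Tg replicate 3. Pgrmc1, a haem-binding membrane protein that associates with P450 enzymes, was 254, 271 and 275 against 244, 244 and 238 (-0.14 ± 0.05), without overlap and with a limma adjusted p of 0.753. The list entries Por, Fdxr and Fdx1l had no probe set with a single symbol and were not analysed here.

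In the haem list 7 of 11 measured genes were above 0, beside 53.2% of all genes, and 2 were higher at an unadjusted p under 0.05, beside 3.96%. Without Scnn1b-Tg replicate 3, 4 of the 11 were above 0. Hmox1, the inducible haem oxygenase that degrades haem, measured 98.6, 83.4 and 99.3 in wild type and 136, 115 and 126 in Scnn1b-Tg. The groups did not overlap, and the log2 fold change was 0.42 ± 0.09 (SE; unadjusted p = 0.00220, limma adjusted p = 0.360). Cpox, an enzyme of haem synthesis, gave 75.1 ± 3.46 (SD, n = 3) and 86.4 ± 5.72, a log2 fold change of 0.20 ± 0.06. Macrophages are rich in Hmox1, and the macrophage markers given above were also above 0, and their part in the value of Hmox1 was not tested.

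Of 14 xenobiotic and lipid receptors 8 were above 0, with 3 higher and 1 lower at an unadjusted p under 0.05. The shares of all genes were 53.2% above 0, 3.96% higher and 2.05% lower. Without wild type replicate 2, 2 receptors were higher and 0 lower at that p. Without Scnn1b-Tg replicate 3 there were 3 higher and 1 lower, and without both arrays 1 higher and 0 lower. Rxra, the shared partner of many of these receptors, was 74.1, 61.8 and 74.1 in wild type and 78.6, 86.4 and 87.2 in Scnn1b-Tg (0.27 ± 0.08, SE; limma adjusted p = 0.714). Its log2 fold change was 0.15 without both arrays that stood apart. Vdr, the vitamin D receptor, was 30.5, 31.8 and 31.9 against 33.2, 36.8 and 39.3 (0.21 ± 0.07; limma adjusted p = 0.714). Neither overlapped between the genotypes, and Vdr lay in the dim range. Of 4 epoxide hydrolases, Ephx1, which opens epoxides made by P450 enzymes, measured 253, 379.9 and 292 in wild type and 245, 252 and 261 in Scnn1b-Tg (-0.27 ± 0.14, SE), with overlap at wild type replicate 1. Its highest value was on wild type replicate 2, as for Cyp2f2, Cyp4b1, Cyp2b10, Cyp39a1 and Cyp27a1, and without that array it was -0.11. Ephx4 gave -0.08 ± 0.05 at a mean near 24.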

How the data were processed

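Whole-lung RNA of 3 wild-type and 3 Scnn1b-Tg samples was labelled as sense target and put on Affymetrix arrays, per the labels. The deposited values are linear intensities of 28815 probe sets, made by the authors with RMA per the submitters' processing notes, with version and settings not given in the sources used here. Whether a constant was added is unknown, and if so, log2 fold changes of dim genes are too small. No batch is given in the labels. Probe sets with 1 platform symbol were kept (21780), with the brightest over all arrays for each gene, and all 87 Cyp symbols matched the RefSeq gene table. The limma fit (3.58.1, R 4.3.3) used log2 intensities, genotype alone as the term and Benjamini-Hochberg adjustment over all 19935 genes. Single differences within arrays had an exact permutation test. The members and lists were chosen with earlier results of these data known, and the neutrophil list, the within-array differences, the gene clusters and the promoter motifs after the values were seen. Genes were named by a rule: the 12 brightest members, the 10 with the smallest p, the brightest of each subfamily of 3 or more, Scnn1b and 2 genes per partner list. Exceptions are named as such or stand beside a result as markers. The labels do not say that the replicate numbers pair arrays, so they were not taken to, and the replicate block is an alternative. Same-numbered arrays deviated together by r = 0.026, 0.028 and 0.039. Pairs with unlike numbers lay lower, from -0.063 to 0.024, so these small values do not settle whether arrays were paired. Tested on simulated data for this comparison (19935 genes, 200 of them changed), the fit recovered 76.4% where the simulated log2 change was 0.5 and 96.6% where it was 1. The simulated spread was drawn without regard to intensity, and the planted changes reached a log2 of 3. In the data Cyp2f2 at -0.48 and Cyp4f18 at 0.74 (SE 0.24) were not called. These shares therefore do not give the chance of calling a given member. The lists were also read without the arrays that stood apart, a choice made after the data were seen. Alternatives are given in the closing section.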

Additional observations from a re-analysis of the deposited data

How the results depend on the processing

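The count of called Cyp genes was 0 in all 15 alternatives. Over all genes the count of called genes was 1, and it was 39 without the 6645 dimmest genes, 36 under a robust variance with intensity trend, 3 with the replicate block, 23 with 16 subtracted, 6 without wild type replicate 2 and Scnn1b-Tg replicate 3, and 0 to 5 over single arrays left out. The replicate block called no Cyp gene. Higher members at an unadjusted p under 0.05 numbered 2 with the intensity trend, 2 with array weights, 3 with 16 subtracted, 2 without both arrays that stood apart and 0 to 3 over single arrays left out (none when wild type replicate 3 was dropped, 3 when wild type replicate 1 was). Lower members numbered 3 to 9 over single arrays left out, the highest without wild type replicate 1. The median log2 fold change over members was -0.032 after median centring, -0.049 without the 6645 dimmest genes (23 members remain) and -0.025 with 16 subtracted. In the class from 50 to 200 the median was -0.083 after quantile normalization and -0.076 after median centring, with -0.083 to -0.037 over single arrays left out. In the class under 50 it was -0.029 after median centring and 0.016 without the 6645 dimmest genes. Of 411 values for the 28 named genes besides Scnn1b, 401 kept their sign and their side of the threshold, and 10 changed sign. Leaving out dim genes, the intensity trend and the replicate block do not alter a log2 fold change. Neither does the mean over probe sets for members with 1 probe set. Under these settings the sign could not change, and all 10 changes came from fits that left arrays out. These belonged to Cyp2b10 (-0.65 to 0.12 over single arrays left out, 0.04 without both arrays that stood apart), Cyp2d22 (-0.090 to 0.028, and -0.096 without both), Cyp2e1 (-0.035 to 0.32), Cyp2j6 (-0.17 to 0.0011, and -0.238 without both), Cyp4f13 (-0.086 to 0.0091) and Cyp2c37 (-0.13 to 0.023). The cause was not tested. With 3 arrays a group and 41 members under an intensity of 25, changes of dim members cannot be told from the floor.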

Other observations

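A further 7 probe sets carry a Cyp symbol together with other symbols and were not counted among the 87 members. The probe set shared by Cyp2a5 and Cyp2a4, near-identical genes of nicotine and steroid oxidation, had intensities of 25.8, 31.8 and 26.9 in wild type and 28.5, 27.1 and 28.2 in Scnn1b-Tg (log2 fold change -0.0052 ± 0.08, SE). The probe set shared by Cyp4v3, a fatty acid hydroxylase, and Klkb1 had 57.0, 71.2 and 61.3 against 60.7, 62.1 and 65.3, a log2 fold change of -0.0053 ± 0.09. Both had overlapping groups. The 5 others, of the Cyp2c, Cyp3a and Cyp4a clusters, lay near the floor of the arrays.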
